A study of Homo sapiens with 30 samples.

Results

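Heat shock genes and ZFAND2A were followed through 30 HepG2 libraries as a list of 10 genes, out of 60107 genes in the count table. The members were ZFAND2A, HSPA1A, HSPA1B, HSPA8, HSPH1, HSP90AA1, DNAJB1, BAG3, HSPB1 and HSPD1. ZFAND2A was selected on its measured level in these data, because its level with the miR-512-3p mimic under Sorafenib stood above that with the mimic control, so that difference is described below and not tested. HepG2 is an established human liver cancer line, and Sorafenib is a multikinase inhibitor used in hepatocellular carcinoma. All cells were transfected with a locked nucleic acid oligonucleotide by lipofection, and 24 h later they received 10 µM Sorafenib or its solvent dimethyl sulfoxide (DMSO). At 6 h of treatment the oligonucleotides were an inhibitor control (IC) and an inhibitor of miR-200c-3p (I200c). At 24 h of treatment they were a mimic control (MC), a mimic of miR-222-5p (M222) and a mimic of miR-512-3p (M512). Each of the 10 combinations of oligonucleotide and treatment had 3 libraries, described as biological replicates of one cell line, and no untransfected cells were analysed here. Time and kind of control oligonucleotide changed together, so they cannot be told apart.

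The heat shock response is a protective programme in which heat shock factor 1 (HSF1), released when unfolded proteins occupy the chaperones, binds heat shock elements in promoters and raises transcription of chaperone genes. HSPA1A and HSPA1B encode the inducible HSP70 and HSPA8 its constitutive relative, with DNAJB1 as a J-domain partner, HSPH1 and BAG3 as nucleotide exchange factors, HSP90AA1 as the inducible HSP90, HSPB1 as a small holdase and HSPD1 as the mitochondrial chaperonin. ZFAND2A, also called AIRAP, is an AN1 zinc finger protein that is induced by arsenite and heat through HSF1 and associates with the proteasome.

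Library totals ran from 3938764 to 9657063 counts, with a median of 6460786.5. The liver genes taken as HepG2 markers were counted in every library. They ran from ALB at 2348 to 5106 CPM (counts per 1000000 of a library) down to TTR at 26.0 to 107.2 CPM. Markers of other cell types were mixed. PTPRC of blood cells had no count in 29 libraries, but the other blood markers LYZ (98.2 to 303.1 CPM), CD68 (0.447 to 11.1 CPM) and HBB (0.0 to 185.8 CPM) were counted. VWF of endothelial cells and DCN and LUM of stromal cells had no count in all 30, and the remaining markers of those cells reached 11.6 CPM at most, for COL1A1. Each level is a share of a library, so the number of cells and the RNA per cell cannot be told apart. Levels below are CPM scaled by the trimmed mean of M-values (TMM) over all 30 libraries. The 3 libraries of M512 with Sorafenib were uneven. Mitochondrial genes held 24.2%, 24.2% and 17.5% of their counts, and 13656, 13866 and 16582 genes had a count. The Sorafenib values of members in M512 are therefore given without each of them as well. Replicate 2 of I200c with DMSO had the highest mitochondrial share of all 30 libraries, 26.8% beside 19.9% and 18.2% in its group.

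The 3 oligonucleotides relate to the mature miRNAs below, shown because the seed (bases 2 to 8, in capitals) sets which transcripts a mimic could bind. The miR-512-3p sequence is encoded on chromosome 19 at chr19:53666729-53666750 and again at chr19:53669213-53669234, miR-222-5p at chrX:45747073-45747094 and miR-200c-3p at chr12:6963742-6963764 (RefSeq, GRCh38.p14).
miR-512-3p: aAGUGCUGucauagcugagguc
miR-222-5p: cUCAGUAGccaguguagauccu
miR-200c-3p: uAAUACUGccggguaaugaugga
The seed of miR-512-3p is complementary to CAGCACT, that of miR-222-5p to CTACTGA and that of miR-200c-3p to CAGTATT. None of the 10 members' 3′ untranslated regions (119 to 2345 bases in the canonical GENCODE transcripts) held any of these 3 words, that of ZFAND2A being 162 bases long. In HSPA4L, an HSP110 relative outside the list that is described further on, the word CAGCACT occurred at 3 places, and the first lay at chr4:127834416-127834444 on the plus strand.
HSPA4L site: tacaatgtagtCAGCACTtaatggagagt

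RefSeq promoter windows were found for all 10 members. They span 250 bases before to 50 after the start site, and some genes have more than 1. A heat shock element is built from inverted GAA units, so GAANNTTC and TTCNNGAA (2 units) and GAANNTTCNNGAA and TTCNNGAANNTTC (3 units, each containing overlapping 2-unit words) were searched. Both words of each size cover both strands. Counted per gene over all its windows, the 3-unit form occurred in 3 members, HSPA8, HSP90AA1 and HSPD1, compared with 0.608% of 27305 genes. The 2-unit form occurred in 8 of 10 members, compared with 16.18% of genes (13.49% of the 35116 single windows), and was not found for BAG3 or HSPH1. The 250 bases before the start site are shown for ZFAND2A and for HSPA1B, HSPA8 and BAG3, the heat shock genes with the largest Sorafenib values below, with 2-unit words in capitals. ZFAND2A has 1 word, HSPA1B 1, HSPA8 4 that overlap in pairs, and BAG3 none. The windows are chr7:1160197-1160446, minus strand (ZFAND2A), chr6:31827488-31827737, plus strand (HSPA1B), chr11:123062137-123062386, minus strand (HSPA8) and chr10:119651130-119651379, plus strand (BAG3).
ZFAND2A: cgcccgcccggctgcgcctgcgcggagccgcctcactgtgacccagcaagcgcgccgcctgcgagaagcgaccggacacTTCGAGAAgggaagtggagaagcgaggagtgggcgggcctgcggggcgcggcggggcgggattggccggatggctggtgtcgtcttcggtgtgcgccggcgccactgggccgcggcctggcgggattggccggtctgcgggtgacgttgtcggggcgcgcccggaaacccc
HSPA1B: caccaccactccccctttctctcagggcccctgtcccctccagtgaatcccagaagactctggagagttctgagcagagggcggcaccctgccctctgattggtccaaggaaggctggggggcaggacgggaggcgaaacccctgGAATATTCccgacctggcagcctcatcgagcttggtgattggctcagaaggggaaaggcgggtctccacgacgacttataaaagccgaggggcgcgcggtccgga
HSPA8: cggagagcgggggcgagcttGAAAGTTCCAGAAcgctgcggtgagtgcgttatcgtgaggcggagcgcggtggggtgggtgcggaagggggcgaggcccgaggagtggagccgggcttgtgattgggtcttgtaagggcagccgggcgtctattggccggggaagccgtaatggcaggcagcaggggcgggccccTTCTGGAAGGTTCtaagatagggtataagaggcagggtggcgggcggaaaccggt
BAG3: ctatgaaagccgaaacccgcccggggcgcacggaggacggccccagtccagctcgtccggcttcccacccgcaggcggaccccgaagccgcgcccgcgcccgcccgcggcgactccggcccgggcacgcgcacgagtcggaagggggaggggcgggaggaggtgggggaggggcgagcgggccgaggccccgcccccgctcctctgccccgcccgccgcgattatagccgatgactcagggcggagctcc

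ZFAND2A was highest in M512 with Sorafenib and next in M222 with Sorafenib, and its other 8 groups lay close together. The gene is at chr7:1152071-1160759 on the minus strand of GRCh38, and up to 1626 of its reads were counted in a library. In MC it measured 48.4, 53.8 and 64.4 CPM with DMSO and 77.3, 81.1 and 71.0 CPM with Sorafenib. In M222 it measured 43.9, 61.0 and 69.4 CPM with DMSO and 124.6, 85.6 and 162.0 CPM with Sorafenib. In M512 it measured 58.8, 74.7 and 81.8 CPM with DMSO and 194.4, 161.6 and 202.1 CPM with Sorafenib. In each of these 3 transfections every Sorafenib library lay above every DMSO library, and the M512 libraries with Sorafenib lay apart from all groups except M222 with Sorafenib. At 6 h the level was 62.6, 66.2 and 67.0 CPM in IC with DMSO and 79.0, 59.5 and 84.8 CPM with Sorafenib. In I200c it was 66.3, 59.0 and 60.9 CPM with DMSO and 62.1, 73.4 and 53.7 CPM with Sorafenib. The DMSO and Sorafenib libraries of 6 h overlapped in both transfections.

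**Figure D1:**
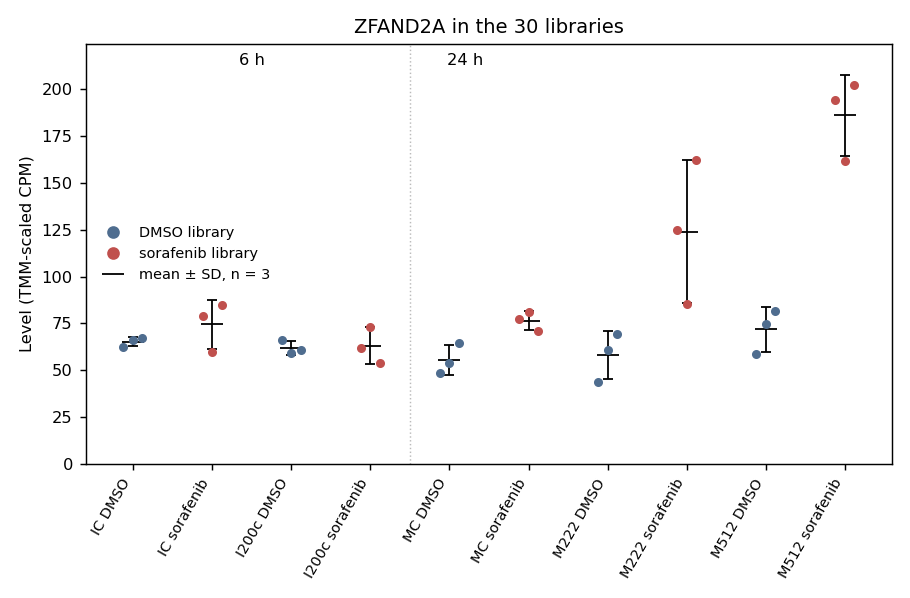
Level of ZFAND2A (y axis, TMM-scaled CPM) in each library of the 10 groups (x axis), with DMSO in blue, Sorafenib in red, and bars for the mean ± SD of 3 libraries. The M512 libraries with Sorafenib lie between 161.6 and 202.1 CPM, and the M222 libraries with Sorafenib between 85.6 and 162.0 CPM, while no library of another group exceeds 84.8 CPM.

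Ordered by group mean, ZFAND2A stood at 186.1 ± 21.5 CPM (SD, n = 3) in M512 with Sorafenib, 124.1 ± 38.2 CPM in M222 with Sorafenib and 76.4 ± 5.1 CPM in MC with Sorafenib. The first and second groups overlapped by 1 library, and the second did not overlap the third. From the third group down to MC with DMSO, at 55.5 ± 8.1 CPM, each group overlapped the next in the order. The highest group mean was 3.35 times the lowest.

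Sorafenib raised ZFAND2A in M222, where the comparison shares no library with the one that put the gene on the list. The log2 fold change was 1.09 (standard error, SE, 0.23, 95% confidence interval 0.59 to 1.59), with an adjusted p of 0.00619 in edgeR's quasi-likelihood test with Benjamini-Hochberg adjustment over all genes tested. It was 0.89 to 1.34 when any 1 of the 6 libraries was left out, and the call was kept each time. The log2 fold change was 0.47 (SE 0.23) in MC and 1.34 (SE 0.23) in M512, values that share libraries with the comparison that chose ZFAND2A and so carry no test. At 6 h no call was made, with 0.18 (SE 0.17, adjusted p = 0.999) in IC and 0.02 (SE 0.16, adjusted p = 0.97) in I200c by the same edgeR test. In the controls the Sorafenib value at 24 h exceeded that at 6 h by 0.25 (SE 0.25), also without a test.

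The miR-512-3p mimic itself was compared with the mimic control in each treatment. In DMSO, where the libraries played no part in the choice of ZFAND2A, its log2 fold change was 0.37 (SE 0.23, 95% interval −0.13 to 0.86) and was not called (adjusted p = 0.616, edgeR). In Sorafenib the log2 fold change that chose the gene was 1.25 (SE 0.23), and it was 1.22, 1.35 and 1.20 without replicate 1, 2 or 3 of M512 with Sorafenib. The Sorafenib value in M512 was likewise 1.32, 1.45 and 1.28 without those libraries. The difference of the Sorafenib values between M512 and MC was 0.88 (SE 0.32) and that between M222 and MC 0.63 (SE 0.32), neither tested. In M222 against MC the log2 fold change was 0.04 (SE 0.23, adjusted p = 0.997, edgeR) in DMSO and 0.67 (SE 0.23, not tested) in Sorafenib. The miR-200c-3p inhibitor against its control gave −0.06 (SE 0.17) in DMSO and −0.23 (SE 0.16) in Sorafenib, neither called.

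The inducible HSP70 genes HSPA1A and HSPA1B differed from each other. They lie side by side at chr6:31815543-31817946 and chr6:31827738-31830254 on the plus strand, and 19.5% of the 65-base words in the last 500 bases of HSPA1A also occur in HSPA1B, so reads could be shared between them. None of the 436 such words in the last 500 bases of HSPA1B occurs in another gene. A long noncoding RNA of the annotation also overlaps the 3′ end of HSPA1B on the same strand, but it was not among the genes counted. HSPA1B was higher with Sorafenib in I200c, at 57.0, 54.3 and 48.8 CPM against 17.0, 20.2 and 28.0 CPM with DMSO. Every Sorafenib library lay above every DMSO library there. Its log2 fold change was 1.29 (SE 0.22, adjusted p = 0.00299, edgeR), and 1.14 to 1.52 with 1 library left out, with the call kept. HSPA1A in the same libraries was 63.8, 74.0 and 77.6 CPM with Sorafenib and 68.8, 61.1 and 80.6 CPM with DMSO, with full overlap and a log2 fold change of 0.03 (SE 0.16). With the counts of both genes summed, the I200c value was 0.44 (SE 0.16, adjusted p = 0.158, edgeR) and the call was lost.

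The DMSO level of HSPA1B was lower in I200c than in IC. In IC with DMSO, HSPA1B was at 57.7, 39.8 and 59.9 CPM, all above the I200c libraries with DMSO, and the log2 fold change of I200c against IC in DMSO was −1.26 (SE 0.23, adjusted p = 0.0522, edgeR). The share of all genes lying entirely below IC in that comparison is not given, so the lack of overlap is a description. In IC with Sorafenib it was at 53.8, 49.9 and 81.2 CPM, which overlapped I200c with Sorafenib. The Sorafenib value in I200c exceeded that in IC by 1.06 (SE 0.31), an interaction with an unadjusted p of 0.00284 and an adjusted p of 1 in edgeR. With the counts of HSPA1A and HSPA1B summed, the value of I200c against IC in DMSO was −0.59 (SE 0.16, adjusted p = 0.679, edgeR). The summed interaction was 0.22 (SE 0.22, unadjusted p = 0.326, edgeR). HSPA1B made up 23.5% ± 3.2 (SD, n = 3) of the reads of the pair in I200c with DMSO and 37.6% ± 7.1 in IC with DMSO.

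At 24 h HSPA1B had positive Sorafenib values in all 3 transfections, none of them called. In MC it was at 63.6, 33.5 and 16.03 CPM with DMSO and 83.9, 51.3 and 93.4 CPM with Sorafenib, which overlapped, with a log2 fold change of 1.01 (SE 0.35, adjusted p = 0.121, edgeR). Without MC replicate 1 with DMSO the MC value was 1.66 and was called. In M512 it was at 58.5, 37.3 and 40.0 CPM with DMSO and 96.7, 68.8 and 121.9 CPM with Sorafenib, without overlap, with 1.05 (SE 0.35, adjusted p = 0.0542, edgeR). Without replicate 1, 2 or 3 of M512 with Sorafenib the M512 value was 1.06, 1.25 and 0.84, and it was called without replicate 2. The M512 value was also called with the replicate number as a block (1.07, adjusted p = 0.023, edgeR) and in DESeq2 (1.05, adjusted p = 0.0294). In M222 it was at 65.0, 40.8 and 39.0 CPM with DMSO and 74.5, 67.4 and 92.2 CPM with Sorafenib, without overlap, with 0.69 (SE 0.35, adjusted p = 0.286, edgeR). With the counts of both genes summed, the Sorafenib values were 0.42 in MC, 0.61 in M222 and 0.31 in M512. None of these was called (adjusted p = 0.392, 0.161 and 0.462, edgeR). HSPA1A at 24 h ranged from 57.7 to 148.0 CPM, with Sorafenib values of 0.13 in MC, 0.56 in M222 and −0.19 in M512. The M512 value of HSPA1A was −0.30, 0.07 and −0.36 without replicate 1, 2 or 3 with Sorafenib. HSPA1B's share of the pair was highest in M512 with Sorafenib, at 51.3% ± 3.6, against 30.6% ± 8.3 in M512 with DMSO.

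HSPA8, the constitutive HSP70 that folds proteins in unstressed cells, had a negative Sorafenib value in all 5 transfections. The log2 fold changes were −0.62 (SE 0.19) in IC, −0.60 (SE 0.19) in I200c, −0.50 (SE 0.41) in MC, −0.54 (SE 0.41) in M222 and −1.08 (SE 0.41) in M512. None was called in edgeR, with adjusted p of 0.545, 0.112, 0.578, 0.515 and 0.0983, and the sign stayed negative in all 13 alternative settings of each comparison. The I200c value was called without replicate 3 of I200c with Sorafenib (−0.76, adjusted p = 0.048, edgeR). The MC value was −0.20 without replicate 1 and −0.81 without replicate 2 of MC with Sorafenib. In IC the level was 218.1, 198.9 and 249.6 CPM with DMSO and 133.1, 165.7 and 136.5 CPM with Sorafenib, without overlap. In M512 it was 206.8, 252.1 and 346.4 CPM with DMSO and 109.2, 32.7 and 246.0 CPM with Sorafenib. The M512 libraries with Sorafenib were the most scattered of any group for this gene, and replicate 3 reached into the DMSO range. Without that replicate the value was −1.95 and was called, and without replicates 1 and 2 in turn it was −0.95 and −0.62.

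HSPH1, an HSP110 that recharges HSP70, and HSP90AA1, the inducible HSP90, had levels that correlated at r = 0.858 across the 30 libraries on log2(CPM + 1). The libraries share groups and scaling, so this is a description. In I200c HSPH1 was at 123.2, 182.4 and 148.8 CPM with DMSO and 222.8, 248.5 and 207.3 CPM with Sorafenib, without overlap (log2 fold change 0.57, SE 0.17, adjusted p = 0.0796, edgeR). HSP90AA1 there was at 2887, 4139 and 2835 CPM with DMSO and 4541, 4701 and 4984 CPM with Sorafenib, also without overlap (0.52, SE 0.15, adjusted p = 0.0756, edgeR). Both missed the threshold. With all libraries kept, both were called in DESeq2 (adjusted p = 0.033 for HSPH1 and 0.0318 for HSP90AA1). Without the filter on low counts both were called in edgeR (adjusted p = 0.0225 and 0.021). They were also called when replicate 2 of I200c with DMSO, the highest of its group for each gene, was left out (0.74 for HSPH1 and 0.74 for HSP90AA1). This is the library with the highest mitochondrial share, whose part in these values was not tested. HSPH1 was lowest in M222 with DMSO, at 69.0, 148.0 and 82.6 CPM, and its value against MC in DMSO was −0.74 (SE 0.23, adjusted p = 0.471, edgeR). Without replicate 2 of M222 with DMSO that value was −1.12 and was called, and the Sorafenib value of HSPH1 in M222 went from 0.63 to 1.06 and was called as well. With the replicate number as a block, that Sorafenib value was 0.67 and was called (adjusted p = 0.0435, edgeR). In MC and M512 the Sorafenib values of both genes lay between 0.09 and 0.25. Without replicate 2 of M512 with Sorafenib both M512 values were below 0, at −0.01 for HSPH1 and −0.17 for HSP90AA1, and without replicates 1 and 3 they were 0.11 and 0.29 for HSPH1 and 0.26 and 0.19 for HSP90AA1.

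BAG3, a nucleotide exchange factor that joins HSP70 to small heat shock proteins and autophagy, rose with Sorafenib in M222. It measured 23.1, 17.2 and 13.4 CPM with DMSO and 76.6, 41.3 and 53.8 CPM with Sorafenib, a log2 fold change of 1.67 (SE 0.33, adjusted p = 0.00465, edgeR). Every Sorafenib library was above every DMSO library, and the value was 1.44 to 1.90 with 1 library left out, with the call kept. In MC it measured 20.5, 20.9 and 11.5 CPM with DMSO and 36.6, 28.4 and 34.7 CPM with Sorafenib, also without overlap but not called (0.92, SE 0.33, adjusted p = 0.134, edgeR). The difference between M222 and MC in the Sorafenib value was 0.75 (SE 0.46, 95% interval −0.26 to 1.75, adjusted p = 1, edgeR), so a difference between the transfections was not shown. In M512 BAG3 measured 27.4, 26.7 and 30.3 CPM with DMSO and 33.4, 20.9 and 58.1 CPM with Sorafenib, which overlapped (0.39, SE 0.32). That value was 0.48 and 0.69 without replicates 1 and 2 of M512 with Sorafenib, and turned to −0.08 without replicate 3. At 6 h its Sorafenib values were −0.42 (SE 0.25) in IC and −0.27 (SE 0.24) in I200c, and the control values at 24 h and 6 h differed by 1.32 (SE 0.40, adjusted p = 0.155, edgeR).

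DNAJB1, the J-domain protein that delivers clients to HSP70 and a classical HSF1 target, did not pass the test in any comparison where it was tested. Its group means spanned 221.4 to 271.1 CPM, a ratio of 1.22, and its Sorafenib values lay between −0.07 and 0.25. The highest value was in M512, where replicate 2 with Sorafenib stood at 374.6 CPM beside 208.4 and 230.3 CPM, and without that library it was −0.03. Without replicates 1 and 3 it was 0.42 and 0.35. The 95% interval in IC was −0.42 to 0.34 and that in MC −0.46 to 0.46.

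HSPB1, the small heat shock protein that holds unfolded clients, was highest in M512 with Sorafenib. It measured 236.8, 209.1 and 140.9 CPM in M512 with DMSO and 397.0, 326.1 and 329.8 CPM with Sorafenib, without overlap (log2 fold change 0.81, SE 0.30, adjusted p = 0.0819, edgeR). Without replicate 1, 2 or 3 of M512 with Sorafenib the value was 0.72, 0.88 and 0.85, and it was not called. It was called in edgeR without the filter on low counts (adjusted p = 0.0056) and with the replicate number as a block (adjusted p = 0.0196). With only the 6 libraries of the transfection it was called as well (adjusted p = 0.0413, edgeR). In the other 4 transfections the Sorafenib values were −0.03 to 0.39. Of its 65-base 3′ words, 17.4% also occur in the pseudogenes HSPB1P1 and HSPB1P2, so a part of its reads could belong to these. HSPD1, the mitochondrial chaperonin, had Sorafenib values of −0.17 to 0.25, and its M512 libraries with Sorafenib were spread from 714.9 to 2489 CPM. Its M512 value of −0.14 became −0.16, −0.55 and 0.21 without replicate 1, 2 or 3 with Sorafenib.

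**Figure D2:**
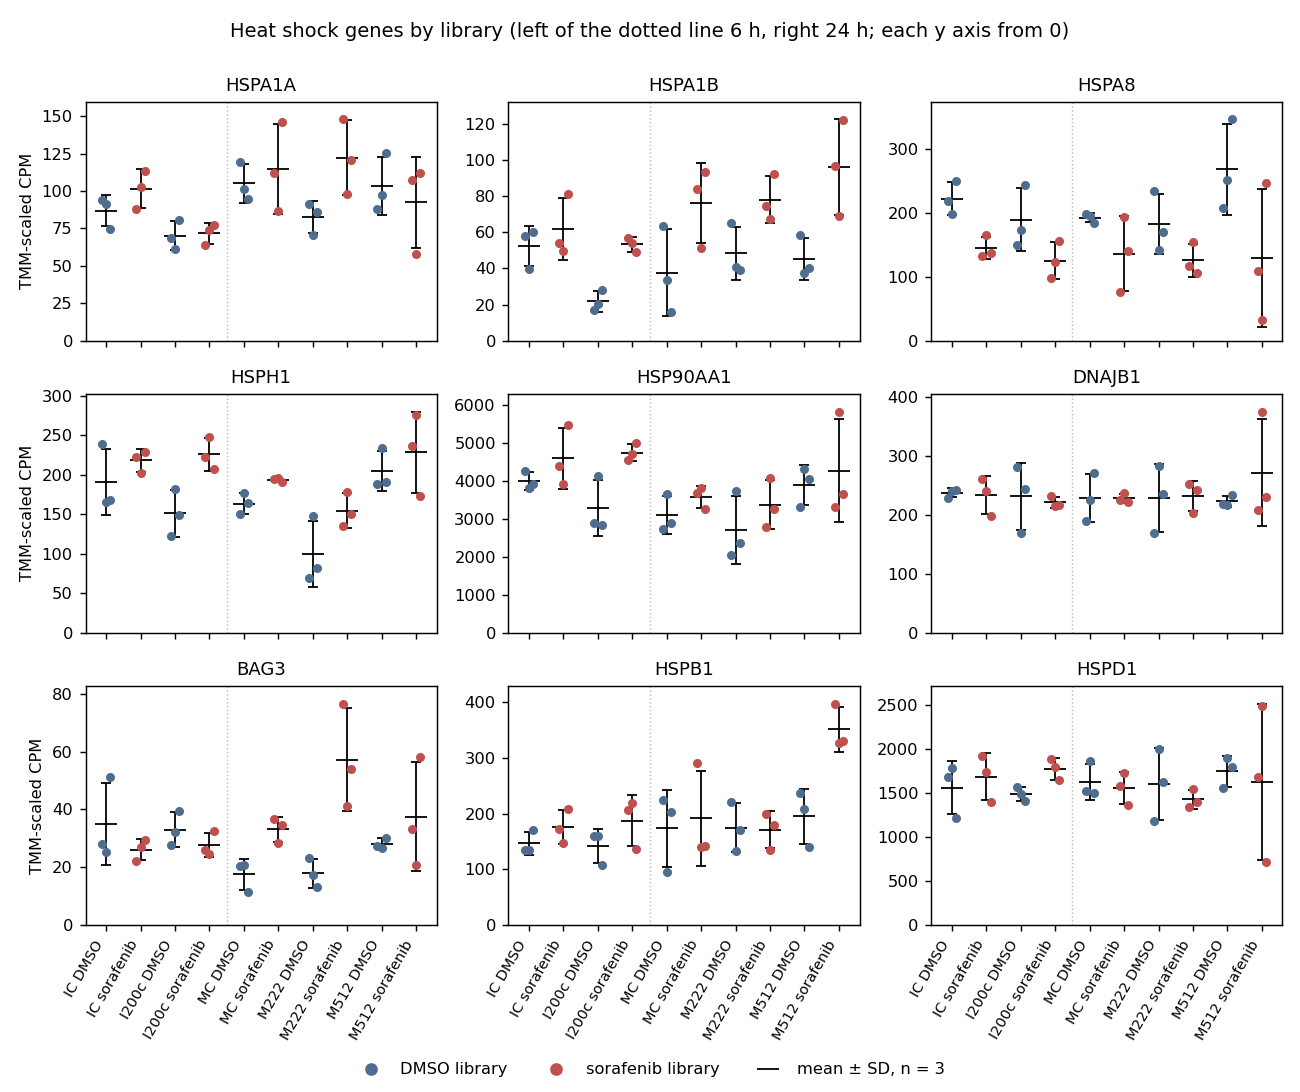
Levels of the 9 heat shock genes (y axes, TMM-scaled CPM, each from 0) in every library of the 10 groups (x axis), with DMSO in blue, Sorafenib in red, and bars for the mean ± SD of 3 libraries. BAG3 in M222 and HSPA1B in I200c show Sorafenib libraries above all DMSO libraries, the group means of DNAJB1 stay between 221.4 and 271.1 CPM, and HSPA8 in M512 with Sorafenib ranges from 32.7 to 246.0 CPM.

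Counted over the list, 3 member values were called for Sorafenib, all higher. All 10 passed the filter on low counts at both times. In IC 0 of 10 were called in edgeR (1 at an unadjusted p under 0.05, 0 in DESeq2), against 0.0393% of all genes tested. In I200c 1 of 10 was called in edgeR, HSPA1B (4 at an unadjusted p under 0.05, 3 in DESeq2), against 2.28% of genes (0.911% called higher). There 4 members had Sorafenib libraries entirely above DMSO, as had 8.54% of genes. In MC 0 of the 9 members tested were called in edgeR (2 at an unadjusted p under 0.05, 0 in DESeq2), against 2.6% of genes. In M222 2 of 10 were called, BAG3 and ZFAND2A, both higher, against 4.38% of genes (2.82% called higher). In M512 0 of 9 were called in edgeR (3 at an unadjusted p under 0.05, 1 in DESeq2, namely HSPA1B), against 9.96% of genes.

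Libraries without overlap and higher with Sorafenib were seen for ZFAND2A, HSPH1 and BAG3 in MC, against 13.1% of genes. In M222 they were seen for ZFAND2A, HSPA1A, HSPA1B and BAG3, against 13.7% of genes. In M512 they were seen for ZFAND2A, HSPA1B and HSPB1, against 14.6% of genes, where ZFAND2A counts through its choice. In IC the 1 member without overlap was HSPA8, lower with Sorafenib, against 6.34% of genes. The median Sorafenib value of the 10 members was 0.18 in IC, 0.14 in I200c, 0.18 in MC, 0.43 in M222 and 0.19 in M512, beside medians of all genes tested between −0.04 and 0.00.

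**Figure D3:**
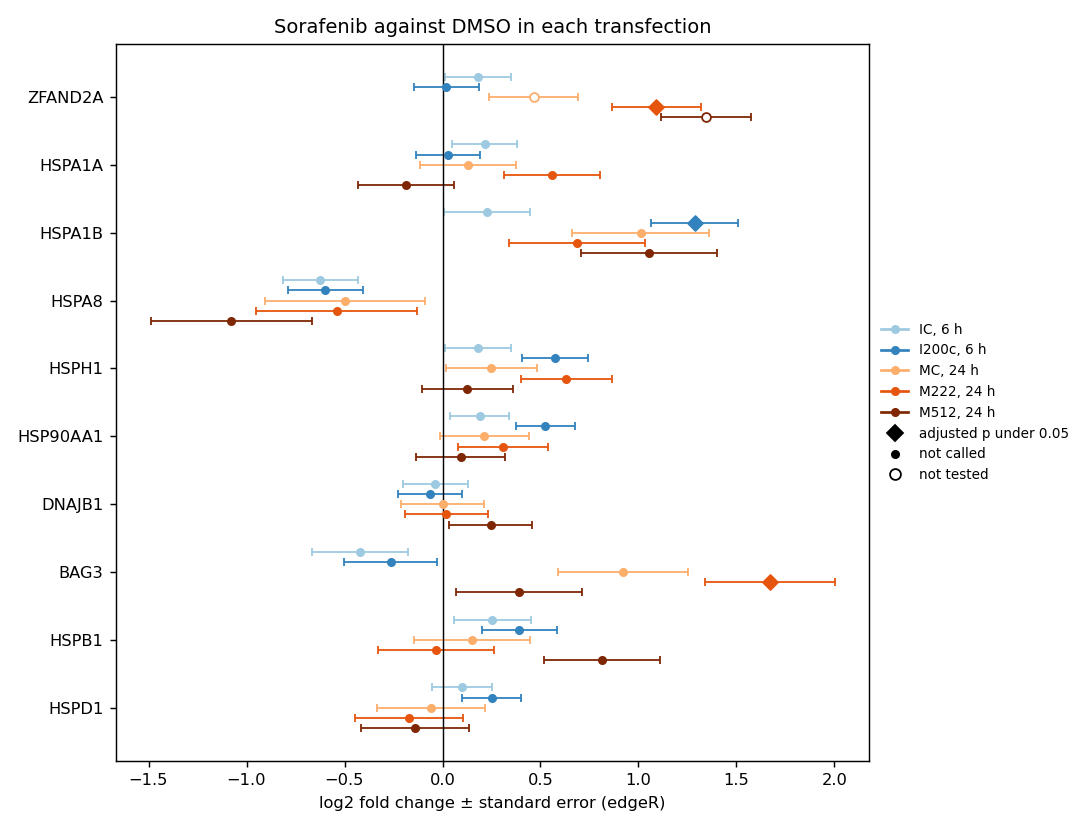
Log2 fold change of Sorafenib against DMSO (x axis) for the 10 genes (y axis) in the 5 transfections, with standard errors as bars, diamonds for values called in edgeR, filled points for values not called and open points for ZFAND2A values that were not tested. The diamonds are ZFAND2A at 1.09 and BAG3 at 1.67 in M222 and HSPA1B at 1.29 in I200c, and HSPA8 lies below 0 in all 5 transfections.

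The oligonucleotides were also compared with their controls within a treatment, where both mimics were set against the same MC libraries. For M512 against MC in DMSO, 0 of 10 members were called in edgeR (0 at an unadjusted p under 0.05, 0 in DESeq2), against 0.634% of genes, and their median was 0.29 beside −0.01 over all genes tested. HSPH1, HSPA8 and BAG3 lay entirely above MC there, as did 10.9% of genes, and the largest value was that of BAG3 (0.67, SE 0.33, adjusted p = 0.481, edgeR). Some markers of other cell types were also highest in M512 with DMSO, but others of the same lists were not. The stromal markers summed to 11.7 to 13.6 CPM there and 0.0 to 9.00 CPM in the other 9 groups. Most of that sum was COL1A1, at 7.64 to 11.6 CPM there. LYZ was at 241.4 to 303.1 CPM there and 98.2 to 230.5 CPM elsewhere. By contrast, PDGFRB reached 4.07 CPM there and 5.92 CPM in I200c with DMSO, and CD68 reached 4.37 and 11.1 CPM. Liver markers were mixed in the same way. Their sum was 15735 to 16803 CPM in M512 with DMSO and reached 13829 CPM in MC with DMSO, the next highest. ALB was at 4643 to 5106 CPM in M512 with DMSO and reached 4237 CPM in M222 with DMSO. FGB went the other way, at 123.7 to 137.4 CPM in M512 with DMSO and up to 287.0 CPM in MC with DMSO. The part of these markers in the values of M512 was not tested. In Sorafenib, where the members were described only, ZFAND2A and HSPB1 lay entirely above MC, as did 7.19% of genes. HSPB1 measured 397.0, 326.1 and 329.8 CPM in M512 and 290.5, 140.8 and 142.7 CPM in MC, a log2 fold change of 0.83 (SE 0.30). The other 8 members had values between −0.35 and 0.29 in that comparison, and between −0.96 and 0.50 when 1 library of M512 with Sorafenib was left out. The value of HSPA8 was −0.10 (SE 0.41), and it turned to 0.36 without replicate 2 and to −0.96 without replicate 3 of M512 with Sorafenib.

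**Figure D4:**
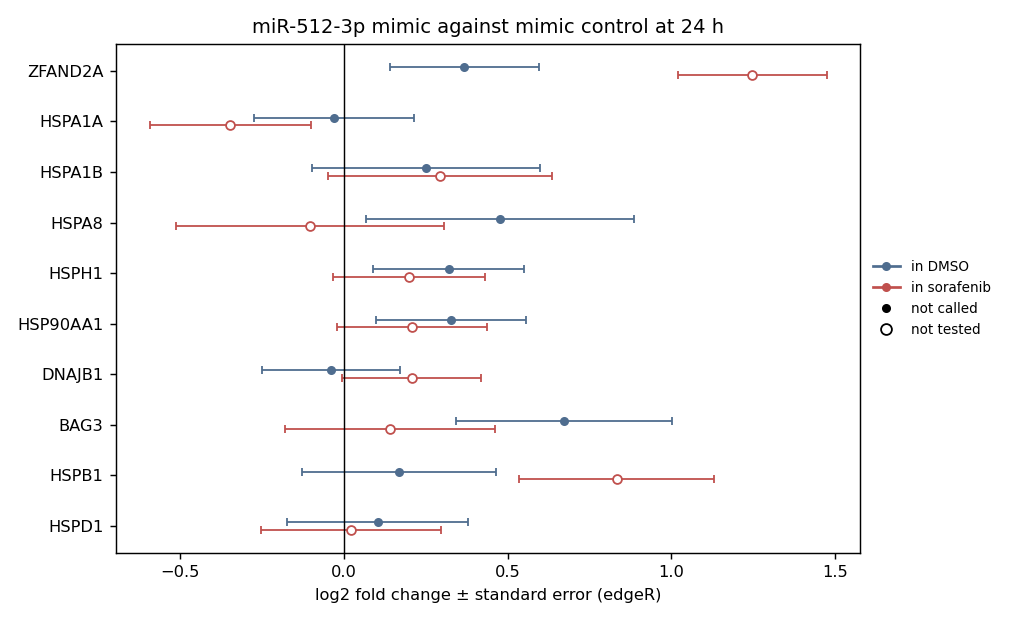
Log2 fold change of the miR-512-3p mimic against the mimic control at 24 h (x axis) for the 10 genes (y axis), in DMSO (blue) and in Sorafenib (red), with standard errors as bars, filled points for values tested and not called and open points for values that were not tested. ZFAND2A lies at 0.37 in DMSO and 1.25 in Sorafenib, and HSPB1 at 0.17 and 0.83.

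For M222 against MC, 0 of 10 members were called in DMSO and 0 of 9 in Sorafenib in edgeR (1 at an unadjusted p under 0.05 in each, 0 in DESeq2 in each), against 0.0% of genes in both. For I200c against IC, 0 of 10 were called in DMSO in edgeR (1 at an unadjusted p under 0.05, and 1 in DESeq2, HSPA1B), against 0.0157% of genes. All 10 values were below 0, with a median of −0.14 beside 0.01 over all genes tested. Those of BAG3, DNAJB1, HSPB1 and HSPD1 were above 0 in 1 or 2 of 12 alternative settings each, and the others stayed below 0. In Sorafenib 0 of 10 were called (1 at an unadjusted p under 0.05, 0 in DESeq2), against 0.0% of genes. No interaction of an oligonucleotide with Sorafenib was called for a member in edgeR or DESeq2, with unadjusted p under 0.05 for 0 of 9 with M512, 0 of 9 with M222 and 1 of 10 with I200c. The shares of all genes called in these interactions were 0.00755%, 0.0% and 0.0%. In the interaction of time with Sorafenib in the controls 0 of 9 members were called in edgeR (1 at an unadjusted p under 0.05, BAG3, and 0 in DESeq2), against 0.216% of genes. The widest 95% interval of a tested interaction with M512, that of HSPA8, ran from −1.84 to 0.68.

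Other genes of the pathway were taken from 10 lists of 85 genes, covering HSF regulators, further HSP70, HSP90, J-domain and BAG proteins, small heat shock proteins, mitochondrial chaperones, the chaperonin CCT, the AN1 zinc finger family and other heat-inducible genes. At 24 h 72 of these were tested, and Sorafenib raised 7 and lowered 0 in MC, raised 7 and lowered 0 in M222, and raised 10 and lowered 2 in M512. These are 9.72%, 9.72% and 16.7% of the list genes tested, beside 2.6%, 4.38% and 9.96% of all genes. The lists were chosen with earlier results of these data known, so the shares describe these genes and do not test the pathway. With 1 library left out the MC count ran from 2 to 8. At 6 h 73 were tested, with 0 called in IC in edgeR (1 at an unadjusted p under 0.05, 0 in DESeq2) and 1 in I200c (1.37%, beside 2.28% of all genes), where the count ran from 0 to 4 with 1 library left out. None of the 8 CCT subunits was called in any of these comparisons.

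The largest called increases of pathway genes at 24 h were those of ATF3, IER5, HSPA13 and GRPEL2. ATF3, a stress-induced transcription factor, was at 3.9, 18.2 and 4.6 CPM in MC with DMSO and 58.6, 40.3 and 84.1 CPM with Sorafenib (2.85, SE 0.52, adjusted p = 0.00274, edgeR). Its Sorafenib value was 2.76 (SE 0.52) in M222 and 4.05 (SE 0.56) in M512, both called. IER5, an immediate early gene whose product acts on HSF1, rose in MC (1.30), M222 (1.30) and M512 (1.69, SE 0.24). HSPA13, an HSP70 relative of the endoplasmic reticulum, rose in MC (1.63, SE 0.36) and M512 (adjusted p = 0.00646, edgeR), and GRPEL2, a nucleotide exchange factor of mitochondrial HSP70, in MC (1.33, SE 0.32), M222 (1.69, SE 0.33) and M512 (1.43, SE 0.32). The J-domain genes DNAJA1 (−0.79, SE 0.20) and DNAJA3 (−0.98, SE 0.28) fell in M512.

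Among the 6 relatives of ZFAND2A with AN1 zinc fingers, 1 was called higher with Sorafenib in all 3 transfections of 24 h. It was ZFAND5, which binds ubiquitin and stimulates the proteasome. It was at 43.0, 48.0 and 40.6 CPM in MC with DMSO and 70.8, 72.5 and 102.8 CPM with Sorafenib (0.91, SE 0.21, adjusted p = 0.0162, edgeR). Its values were 1.03 (SE 0.21) in M222 and 1.20 (SE 0.21) in M512. ZFAND2B, the closest relative of ZFAND2A, rose in M512 (0.99, SE 0.29, adjusted p = 0.0304, edgeR) and had 0.32 (SE 0.29) in MC and 0.53 (SE 0.29) in M222. The median Sorafenib value of the 6 relatives was 0.61 in MC, 0.95 in M222 and 0.90 in M512. In each of these, 3 of the 6 had an unadjusted p under 0.05 in edgeR. Values above 0 were seen for 4 of 6 in MC and for all 6 in M222 and in M512. At 6 h none of the 6 relatives was called.

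HSPA4L, the HSP110 relative with 3 miR-512-3p seed words in its 3′ untranslated region, was the 1 pathway gene called for M512 against MC. It measured 22.3, 26.3 and 22.5 CPM in M512 and 49.2, 55.0 and 56.6 CPM in MC with DMSO (−1.18, SE 0.23, adjusted p = 0.0125, edgeR). With Sorafenib it measured 30.5, 37.8 and 22.7 CPM in M512 and 68.7, 51.5 and 57.2 CPM in MC (−1.01, SE 0.23, adjusted p = 0.0448, edgeR). The groups did not overlap in either treatment, and the call was lost in 5 of 6 fits with 1 library left out in each. The share of all genes lying entirely below MC is not given, so the lack of overlap is a description. A seed match is a description and not a measured site.

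The genes whose levels followed ZFAND2A most closely were not heat shock genes. Over all 30 libraries and 9743 genes with a mean of at least 5 CPM, the highest correlations on log2(CPM + 1) were with GCLM (r = 0.879), OSGIN1 (0.864), NUFIP1 (0.853), SAP18 (0.852) and TARS1 (0.849). Over the 18 libraries of 24 h they were with NUFIP1 (0.916), GCLM (0.904), MT1A (0.900), HNRNPK (0.894) and BUD31 (0.887). GCLM, a subunit of the glutathione synthesis enzyme, measured 224.5, 138.1 and 342.6 CPM in M512 with Sorafenib and 93.2, 79.1 and 119.6 CPM in MC with Sorafenib. Among the other 9 members the closest was HSPB1 (r = 0.574, rank 828), followed by HSPA1B (0.535) and BAG3 (0.472), and HSPA8 ran opposite (−0.424). The libraries share groups, depth and scaling, so these correlations carry no test.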

How the data were processed

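The 3′ ends of HepG2 transcripts were read in 30 libraries made with the QuantSeq 3′ FWD kit. Per the labels and the methods of the study, reads were trimmed, STAR placed them on GRCh38 and HTSeq counted them, and what the authors deposited and is used here are unscaled read counts per Ensembl gene. Versions, annotation release, strand setting and molecular identifiers are not given in the sources used here. The deposited normalised table was not used. The 92 lines without a gene held 3 counts in all. A count of 0 allows up to 0.311 to 0.762 CPM (3 counts), counting error only. Depth was 3938764 to 9657063 counts per library.

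The edgeR 4.0.16 quasi-likelihood test (R 4.3.3, TMM, filterByExpr, one coefficient per group, two-sided) was fitted to the 12 libraries of 6 h (12738 genes), the 18 of 24 h (13244) and the 12 controls (12500), with Benjamini-Hochberg adjusted p under 0.05 as the call. The code was tested on simulated data. The SE is the log2 fold change over the square root of F. Alternatives used DESeq2 1.42.0, other scalings and filters, a replicate block, summed HSPA1A and HSPA1B, and left-out libraries. P-values measure the spread between libraries labelled biological replicates. The members and lists were chosen with earlier results of these data known. All 10 members are named, then up to 3 called list genes per comparison with the largest change, other called list genes by value after they were seen, and the 5 genes most correlated with ZFAND2A. The list gene called in I200c is not reported here. Symbols and untranslated regions came from GENCODE release 44, and promoters and miRNAs from RefSeq (GRCh38.p14).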

Additional observations from a re-analysis of the deposited data

How the results depend on the processing

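The count of members called moved by more than 1.5 times in these settings. For Sorafenib in I200c it went from 1 to 4 without the filter on low counts, to 0 with HSPA1A and HSPA1B summed and to 3 in DESeq2. For Sorafenib in MC it went from 0 to 1 without the filter. For Sorafenib in M512 it went from 0 to 3 without the filter, 1 in DESeq2, and 2 when only the 6 libraries of the transfection were fitted. For I200c against IC in DMSO it went from 0 to 1 without the filter and to 1 in DESeq2, and for the interaction of time with Sorafenib from 0 to 1 without the filter. With 1 library left out, the counts ranged from 1 to 3 in I200c, 0 to 1 in MC, 2 to 3 in M222 and 0 to 1 in M512 for Sorafenib, and from 0 to 1 for M222 against MC in DMSO. The replicate block gave 2 members in M512 (HSPA1B and HSPB1) in place of 0. It also called HSPH1 in M222 (adjusted p = 0.0435, edgeR). Same-numbered libraries correlated at −0.142 to 0.222 at 24 h and −0.086 to 0.252 at 6 h. The numbers were therefore not taken to pair samples over the series, although 16 of 18 and 5 of 12 libraries correlated best with their own number. At 24 h the median correlation was 0.056 for same-numbered pairs and −0.030 for pairs of different numbers. At 6 h these medians were 0.015 and −0.007. In MC against M222 with DMSO alone all 3 same-numbered pairs lay above 0.1 (0.182 to 0.189), and there 0 members were called with or without the block. No value turned its sign among those called. The ZFAND2A value of M512 against MC in Sorafenib was 1.20 to 1.35 with 1 library left out. Scaling by total counts moved the median of all genes to −0.12, −0.14 and −0.22 for Sorafenib in MC, M222 and M512. Of 124 uncalled member values, 11 were called in at least 1 alternative. Pathway counts moved as follows: I200c from 1 to 2 by total counts, 4 without the filter, 3 in DESeq2 and 0 with only the 6 libraries, and MC from 7 to 4 with only the 6 libraries. With 1 library left out they ranged from 0 to 4 in I200c, 2 to 8 in MC, 5 to 9 in M222 and 8 to 13 in M512 for Sorafenib, from 0 to 1 for M512 against MC in each treatment and for M222 against MC in DMSO, and from 0 to 2 for the interaction of time with Sorafenib. The call of HSPA4L in Sorafenib was lost with median-ratio scaling (adjusted p = 0.0566, edgeR). Those of HSPA13 and GRPEL2 in MC were lost with only the 6 libraries (adjusted p = 0.0552 and 0.0879, edgeR) and in 4 of 6 fits each with 1 library left out. The causes of these shifts were not tested. BAG3 had 76 to 594 counts per library, and how far depth limits its values was not tested.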
